A study of Mus musculus with 11 samples.

Results

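Dusp1, Dusp2, Dusp4, Dusp5, Dusp6, Dusp7, Dusp10 and Dusp16 encode 8 dual-specificity MAP kinase phosphatases, and their mRNA levels are described here in cultured microglia given a Toll-like receptor 2 (TLR2) agonist, interferon-gamma (IFN-gamma) or both. The genes were taken by symbol from a table of 34745 genes, and the choice was made with earlier results of these data known. All 8 were among the 10938 genes with at least 1 FPKM (fragments scaled by gene length and library size) in at least 2 libraries, which were the genes tested. The cells were adult microglia, the resident macrophages of the brain, taken from cerebra of C57BL/6 mice that were 6 to 8 weeks old. Before treatment they spent 10 to 14 days in culture, in all 4 groups with M-CSF (10 ng/ml) and TGF-beta1 (5 ng/ml) in the medium. The combined group (Pam3CSK4+IFN-gamma, 3 libraries) received the synthetic lipopeptide Pam3CSK4, a TLR2 agonist, at 100 ng/ml for 24 h and then, for a further 24 h, IFN-gamma at 20 ng/ml. The Pam3CSK4 group (2 libraries) and the IFN-gamma group (3 libraries) received 1 of these agents at the same dose for 24 h, and the Control group (3 libraries) received neither. A treatment label gives another last digit in the agonist's name for combined replicates 2 and 3, and these were treated as the same agonist. The labels do not state whether Pam3CSK4 was removed before IFN-gamma, when Control and Pam3CSK4 cells were harvested, or whether replicates were separate animals or cultures, so p-values measure the spread between these libraries, which may be technical.

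MAP kinases such as ERK, p38 and JNK are switched on by phosphorylation of a threonine and a tyrosine in their activation loop, and dual-specificity phosphatases remove both phosphates. Dusp1, Dusp2, Dusp4 and Dusp5 encode nuclear enzymes that are transcribed quickly when MAP kinases are active; Dusp6 and Dusp7 encode cytoplasmic enzymes that act on ERK; Dusp10 and Dusp16 encode enzymes that act mainly on p38 and JNK. In macrophages, Dusp1 is the classical feedback inhibitor of p38 and JNK after Toll-like receptor activation, and Dusp6 mRNA is a common readout of ERK activity. The data hold mRNA levels at fixed late times and no measure of kinase activity or protein.

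The libraries held 15033702 to 20321017 counts. Each of 12 microglial markers was at 1 FPKM or more in every library, and their summed level was 5792 to 6218 FPKM in combined libraries, 6331 to 6560 in Pam3CSK4 libraries, 10761 to 11950 in IFN-gamma libraries and 8954 to 13189 in Control libraries; the part of this difference in the results was not tested. In 3 libraries, transcripts of mural cells and fibroblasts were also present. The summed level of a list of 14 mural and fibroblast markers was 70.8 FPKM in combined replicate 3, 136 FPKM in IFN-gamma replicate 1 and 2375 FPKM in Control replicate 3, against 17.4 to 63.5 FPKM in the other 8 libraries, where most of it was Cspg4. Of the 14 genes, 7, 10 and 10 reached 1 FPKM in those 3 libraries and 1 or 2 in each of the others, where 2 to 9 of the 14 had no count. The defining markers Acta2, Tagln and Col1a1 were at 865, 647 and 430 FPKM in Control replicate 3, and Col1a1 was at 0.14 FPKM or less outside the 3 libraries. Results that moved with these libraries are given with and without them.

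**Figure D1:**
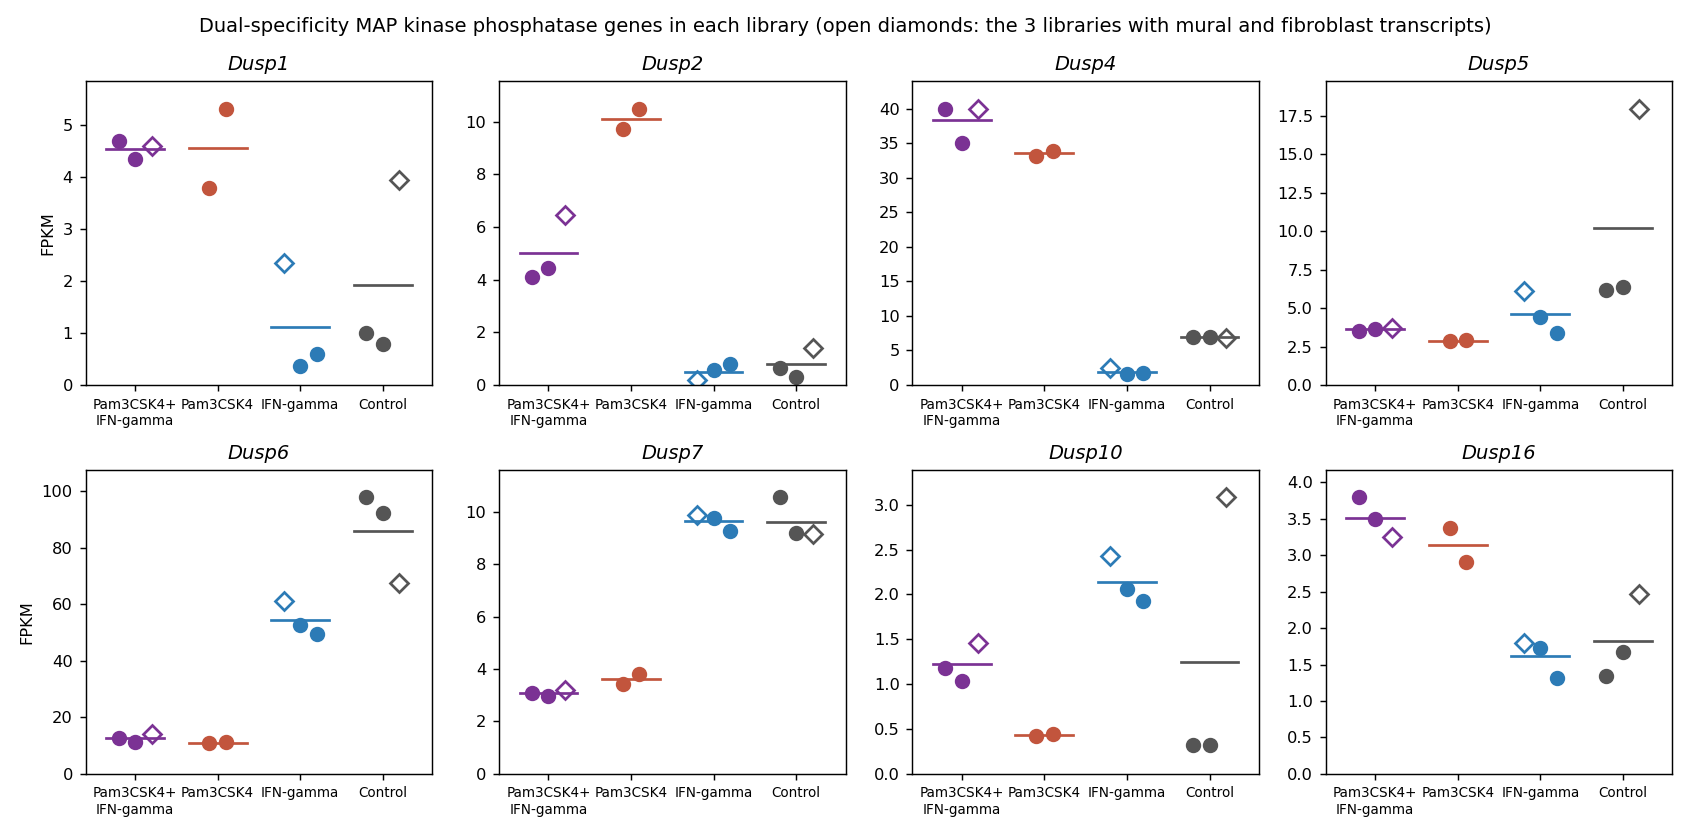
FPKM of each of the 8 phosphatase genes (vertical axes start at 0 and differ between panels) in the combined, Pam3CSK4, IFN-gamma and Control libraries. Points are libraries, lines are group means and open diamonds are the 3 libraries that carried mural and fibroblast transcripts. Dusp4 sat at 33.2 to 40.0 FPKM in the 5 libraries given Pam3CSK4 and at 1.58 to 6.97 FPKM in the other 6. Dusp6 was split the other way by Pam3CSK4, at 11.0 to 14.0 FPKM in those 5 libraries and 49.5 to 97.9 FPKM in the other 6.

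Given Pam3CSK4, microglia carried more Dusp2, Dusp4 and Dusp16 mRNA and less Dusp5, Dusp6 and Dusp7 mRNA than Control cells. In the fit of all libraries, IFN-gamma alone gave less Dusp4, Dusp5 and Dusp6 mRNA and no called rise. Of these IFN-gamma calls, that of Dusp5 was lost in 8 and that of Dusp6 in 4 of the 11 fits that left out 1 library. Without Control replicate 3, Dusp10 rose by a log2 change of 2.76 in IFN-gamma against Control (edgeR adjusted p = 1.36e-05). By edgeR's quasi-likelihood test with Benjamini-Hochberg adjustment over all tested genes, 3 members were higher and 3 lower in Pam3CSK4 cells than in Control cells, where 41.4% of all tested genes were called, 20.0% higher and 21.4% lower. IFN-gamma against Control gave 0 higher and 3 lower members, beside 41.6% of all genes, 20.0% higher and 21.6% lower; 0 members were also higher at an unadjusted p under 0.05. The combined group against Control gave 3 higher and 3 lower, beside 47.6% of all genes, 23.4% higher and 24.2% lower. Set against IFN-gamma, the combined group had 4 higher and 2 lower, beside 34.2% of all genes, 17.0% higher and 17.2% lower. Those comparisons share groups, so their counts are not independent of each other.

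The sizes of change can be read beside those of all tested genes. The median absolute log2 change of the 8 members was 1.62 in Pam3CSK4 against Control, where that of all genes was 0.41. It was 0.61 in IFN-gamma against Control, where that of all genes was 0.38. In the combined group it was 1.48 against Control and 1.85 against IFN-gamma, beside 0.41 and 0.32 over all genes. In bulk RNA, fewer cells that express a gene and less RNA per cell cannot be told apart. The share of members called was 75% in Pam3CSK4 against Control, in the combined group against Control and in the combined group against IFN-gamma. It was 37.5% in IFN-gamma against Control, near the 41.6% of all genes.

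**Figure D2:**
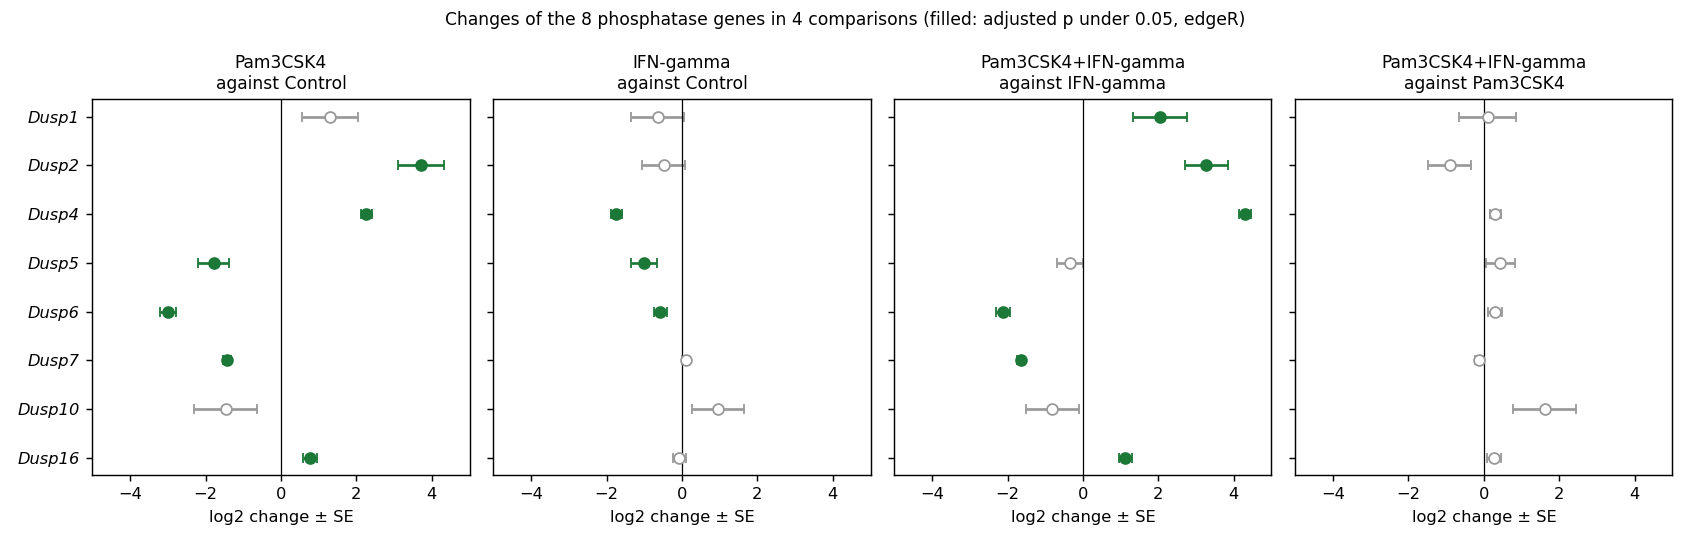
Log2 change ± SE of the 8 phosphatase genes (horizontal axes; edgeR fit of all 11 libraries) in 4 comparisons, with the group named first in each title over the group named second. Filled points passed an adjusted p of 0.05; Dusp2 and Dusp4 stood at 3.70 and 2.26 in Pam3CSK4 against Control, Dusp6 stood at -2.99, and no point passed in the combined group against Pam3CSK4.

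Dusp4 (chromosome 8, 34807297 to 34819894, plus strand, mm10) encodes a nuclear phosphatase of ERK and JNK. Its level was 40.0, 35.1 and 40.0 FPKM in the combined libraries and 33.2 and 33.9 FPKM in the Pam3CSK4 libraries. IFN-gamma libraries held 2.44, 1.58 and 1.79 FPKM, and Control libraries held 6.97, 6.92 and 6.85 FPKM. No 2 of the 4 groups overlapped, and the order of the levels was combined, Pam3CSK4, Control and then IFN-gamma. Group means were 38.3 ± 2.83 FPKM in combined cells (SD, n = 3), 33.5 ± 0.53 FPKM in Pam3CSK4 cells (n = 2), 1.94 ± 0.45 FPKM in IFN-gamma cells (n = 3) and 6.91 ± 0.059 FPKM in Control cells (n = 3). Pam3CSK4 raised Dusp4 4.79-fold against Control, a log2 change of 2.26 ± 0.15 (SE, edgeR adjusted p = 5.63e-06). IFN-gamma against Control gave a log2 change of -1.74 ± 0.14 (edgeR adjusted p = 1.62e-05). Between the top 2 groups, the combined cells were higher than Pam3CSK4 cells by 0.30 ± 0.15, which did not pass the test (edgeR adjusted p = 0.277).

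The Dusp4 difference with Pam3CSK4 was larger between the groups given IFN-gamma than between the groups not given it. The combined group exceeded IFN-gamma by a log2 change of 4.30 ± 0.15, a 19.7-fold difference (edgeR adjusted p = 2.17e-07). The interaction, which is the effect of Pam3CSK4 with IFN-gamma minus that without it, was 2.04 ± 0.20 for Dusp4 (edgeR adjusted p = 0.000446). IFN-gamma cells held 0.299 times the Control level of Dusp4, while all 3 combined libraries lay above both Pam3CSK4 libraries. Dusp4 was called in each of the 11 fits that left out 1 library, in each comparison with Control, in the combined group against IFN-gamma and in the interaction.

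Dusp2 (chromosome 2, 127336159 to 127338376, plus strand) encodes a nuclear phosphatase first described in activated immune cells. Combined libraries held 4.09, 4.46 and 6.45 FPKM, and Pam3CSK4 libraries held 9.72 and 10.5 FPKM. In IFN-gamma libraries it was at 0.178, 0.564 and 0.782 FPKM, and in Control libraries at 0.645, 0.293 and 1.41 FPKM. All 5 libraries given Pam3CSK4 lay above the other 6, and the Pam3CSK4 libraries also lay above the combined libraries without overlap. The low values rested on few reads, 7 to 28 counts in IFN-gamma libraries and 11 to 60 counts in Control libraries. Dusp2 rose by a log2 change of 3.70 ± 0.61 in Pam3CSK4 cells against Control (edgeR adjusted p = 0.00114), the largest change of the 8 genes in that comparison. It was 2.79 ± 0.56 higher in combined cells than in Control cells (edgeR adjusted p = 0.00279). IFN-gamma and Control, the lowest pair, overlapped, and their difference of -0.48 ± 0.57 did not pass (edgeR adjusted p = 0.524).

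The combined group had a lower Dusp2 level than the Pam3CSK4 group, a difference that the fit of all libraries did not call. Added IFN-gamma and time since Pam3CSK4 cannot be told apart here, because the harvest time of Pam3CSK4 cells is not stated. The means were 5.00 ± 1.27 FPKM in combined cells (SD, n = 3) and 10.1 ± 0.55 FPKM in Pam3CSK4 cells (n = 2). The difference in Dusp2 was a log2 change of -0.91 ± 0.57 (edgeR adjusted p = 0.410). It passed when the fit held just those 2 groups (-0.91, edgeR adjusted p = 0.0247) and when the 3 libraries that carried mural and fibroblast transcripts were left out (-1.13, edgeR adjusted p = 0.00888). Combined replicate 3, the highest of its group at 6.45 FPKM, was 1 of the 3 libraries left out.

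Dusp1 (chromosome 17, 26505590 to 26508519, minus strand) encodes the nuclear phosphatase best known for limiting p38 and JNK in activated macrophages. It was at 4.70, 4.34 and 4.61 FPKM in combined libraries and at 3.79 and 5.32 FPKM in Pam3CSK4 libraries. IFN-gamma libraries held 2.35, 0.375 and 0.605 FPKM, and Control libraries held 1.01, 0.787 and 3.95 FPKM. The 2 highest values outside the Pam3CSK4-treated libraries came from Control replicate 3 and IFN-gamma replicate 1, which carried mural and fibroblast transcripts, and Control replicate 3 overlapped the Pam3CSK4 group. With all libraries, the log2 change was 1.29 ± 0.75 in Pam3CSK4 against Control (edgeR adjusted p = 0.191) and 1.40 ± 0.69 in the combined group against Control (edgeR adjusted p = 0.123), and neither passed. The combined group was 2.04 ± 0.71 higher than IFN-gamma (edgeR adjusted p = 0.0499), a call that was lost in 8 of the 11 fits that left out 1 library and that stood at 3.20 without the 3 libraries (edgeR adjusted p = 4.79e-05). Without the 3 libraries, Dusp1 rose by 2.28 in Pam3CSK4 against Control (edgeR adjusted p = 0.000143) and by 2.38 in the combined group against Control (edgeR adjusted p = 0.000100). IFN-gamma against Control was then -0.83 (edgeR adjusted p = 0.0496), whereas without Control replicate 3 alone it was 0.34.

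Dusp5 (chromosome 19, 53529109 to 53542431, plus strand) encodes a nuclear phosphatase specific for ERK. Its level was 3.55, 3.66 and 3.71 FPKM in combined libraries and 2.85 and 2.94 FPKM in Pam3CSK4 libraries. It was 6.09, 4.41 and 3.40 FPKM in IFN-gamma libraries and 6.21, 6.36 and 18.0 FPKM in Control libraries. Every Control library lay above every treated library, and the Control library with the most mural and fibroblast transcripts was the highest by far. Pam3CSK4 cells differed from Control cells by a log2 change of -1.79 ± 0.41 (edgeR adjusted p = 0.00716), and combined cells by -1.35 ± 0.35 (edgeR adjusted p = 0.0105). Leaving out Control replicate 3 brought these to -1.19 and -0.75, both still called. The first call was lost when the fit held just the Pam3CSK4 and Control groups (-1.77, edgeR adjusted p = 0.0621). It was also lost without Pam3CSK4 replicate 1 (-1.75) or without Pam3CSK4 replicate 2 (-1.82). In those 2 fits, 1 Pam3CSK4 library remained and was assumed to vary like the other groups. IFN-gamma cells stood at -0.998 ± 0.35 against Control cells (edgeR adjusted p = 0.0436), and this call was lost in 8 of the 11 fits that left out 1 library, among them the fit without Control replicate 3 (-0.40, edgeR adjusted p = 0.114). With all 3 libraries that carried mural and fibroblast transcripts left out, it was -0.62 and called (edgeR adjusted p = 0.00963). An antisense gene overlaps Dusp5 in GENCODE M21, and the strand setting of the counting is not given in the sources used here, so reads of that gene could be included.

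Dusp1 and Dusp5 were the members whose promoter windows held a motif searched for here, so 150 bases of each, from 200 to 51 bases before the RefSeq start, are shown in the orientation of the gene with the matches in capitals. The search covered 250 bases before the start of 27025 RefSeq promoters (GRCm38.p6), on both strands. Of the 8 members, 7 had an entry. Dusp4 had none, so its promoter was not searched. The Dusp1 window lies at chr17:26508523-26508672 on the minus strand, and its capitals mark the cAMP response element TGACGTCA at -143 to -136.
Dusp1: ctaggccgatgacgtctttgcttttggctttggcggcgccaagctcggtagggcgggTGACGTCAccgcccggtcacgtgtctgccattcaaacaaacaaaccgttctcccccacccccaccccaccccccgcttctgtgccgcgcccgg
The Dusp5 window lies at chr19:53528945-53529094 on the plus strand, and its capitals mark 2 adjacent, non-overlapping CArG boxes, the letters bound by serum response factor, at -82 to -73 and -72 to -63.
Dusp5: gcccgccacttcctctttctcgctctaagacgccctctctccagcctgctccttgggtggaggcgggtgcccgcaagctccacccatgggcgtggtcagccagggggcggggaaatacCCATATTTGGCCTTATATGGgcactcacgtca
TGACGTCA was found in 1.62% of all promoters and a CArG box in 1.40%. The AP-1 site TGACTCA (4.43% of all promoters), the GAS element TTCNNNGAA (7.18%), the ETS site CCGGAAGT (2.93%) and an NF-kappaB site (7.01%) were in none of the 7 windows. These are letters in a window and not measured binding.

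mRNA stability also sets the level of early response genes, and the AU-rich heptamer TATTTAT in a 3′ UTR is bound by decay factors of the tristetraprolin (Zfp36) family. In the GENCODE M21 transcripts, Dusp1 held 3 such heptamers in a 3′ UTR of 690 bases and Dusp2 held 1 in 581 bases. The other 6 members held 0 in 3′ UTRs of 1109 to 2411 bases. Among 2379 genes with a 3′ UTR within 20% of the length of that of Dusp1, 18.5% held at least 1 and 1.26% held 3 or more. Among 2166 genes of the length class of Dusp2, 15.4% held at least 1. One site of each is shown with the heptamer in capitals, at bases 104 to 110 of the Dusp1 3′ UTR and at bases 520 to 526 of the Dusp2 3′ UTR, as the pair of members that carry it.
Dusp1: gagctggtcctTATTTATttaacaccccc
Dusp2: acagcactttaTATTTATatagaacattg

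Dusp6 (chromosome 10, 99263231 to 99267488, plus strand) encodes the cytoplasmic ERK phosphatase and was the most abundant of the 8 mRNAs in untreated cells. It was at 12.6, 11.3 and 14.0 FPKM in combined libraries and at 11.0 and 11.1 FPKM in Pam3CSK4 libraries. IFN-gamma libraries held 61.0, 52.7 and 49.5 FPKM, and Control libraries held 97.9, 92.2 and 67.5 FPKM. Levels fell into 2 separate ranges, with all 5 libraries given Pam3CSK4 below all 6 others, and Control lay above IFN-gamma without overlap. Means were 12.6 ± 1.34 FPKM in combined cells (SD, n = 3), 11.1 ± 0.094 FPKM in Pam3CSK4 cells (n = 2), 54.4 ± 5.97 FPKM in IFN-gamma cells (n = 3) and 85.8 ± 16.2 FPKM in Control cells (n = 3). The change was -2.99 ± 0.22 on the log2 scale in Pam3CSK4 against Control, 0.126 times the Control level (edgeR adjusted p = 1.04e-05). Against Control, the combined cells stood at -2.69 ± 0.18 (edgeR adjusted p = 3.20e-06), and against IFN-gamma cells at -2.12 ± 0.18 (edgeR adjusted p = 2.80e-05). These 3 calls held in each of the 11 fits that left out 1 library.

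IFN-gamma alone was followed by a smaller fall of Dusp6. The log2 change against Control was -0.57 ± 0.17 (edgeR adjusted p = 0.0230), which was lost in 4 of the 11 fits that left out 1 library and was -0.83 without the 3 libraries that carried mural and fibroblast transcripts (edgeR adjusted p = 0.000101). Among cells given Pam3CSK4, the combined group and the Pam3CSK4 group were neighbours in level and differed by 0.30 ± 0.19 (edgeR adjusted p = 0.434). The interaction was 0.87 ± 0.26 (edgeR adjusted p = 0.0496), and it was lost in 10 of the 11 fits that left out 1 library. It was 1.05 when the 3 libraries were left out (edgeR adjusted p = 0.000698).

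Dusp7 (chromosome 9, 106368632 to 106375724, plus strand) encodes the other cytoplasmic ERK phosphatase of the set and was called in the comparisons that tested Pam3CSK4 and not in IFN-gamma against Control. Combined libraries held 3.08, 2.98 and 3.19 FPKM, and Pam3CSK4 libraries held 3.44 and 3.79 FPKM. IFN-gamma libraries held 9.87, 9.77 and 9.28 FPKM, and Control libraries held 10.6, 9.19 and 9.16 FPKM. Every library given Pam3CSK4 was below every library not given it, and IFN-gamma and Control libraries overlapped. Log2 changes were -1.43 ± 0.11 in Pam3CSK4 against Control (edgeR adjusted p = 1.56e-05), -1.55 ± 0.10 in the combined group against Control (edgeR adjusted p = 2.29e-06) and -1.65 ± 0.10 in the combined group against IFN-gamma (edgeR adjusted p = 3.39e-06). IFN-gamma against Control gave 0.10 ± 0.10 (edgeR adjusted p = 0.446), and the interaction of -0.22 ± 0.14 did not pass (edgeR adjusted p = 0.335). Control replicate 3, at 9.16 FPKM, stood with the other Control libraries for this gene.

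Dusp16 (chromosome 6, 134715468 to 134792625, minus strand) encodes a phosphatase that acts mainly on JNK and p38. Its level was 3.80, 3.50 and 3.25 FPKM in combined libraries and 3.37 and 2.91 FPKM in Pam3CSK4 libraries. It was 1.80, 1.73 and 1.31 FPKM in IFN-gamma libraries and 1.35, 1.67 and 2.47 FPKM in Control libraries. The 5 libraries given Pam3CSK4 lay above the other 6, while combined overlapped Pam3CSK4 and IFN-gamma overlapped Control. The gene rose by 0.78 ± 0.19 in Pam3CSK4 against Control (edgeR adjusted p = 0.00883). This call was lost when the fit held just the Pam3CSK4 and Control groups (0.80, edgeR adjusted p = 0.0652). It was also lost without Pam3CSK4 replicate 1 (0.68), where 1 Pam3CSK4 library remained. Dusp16 was 1.05 ± 0.17 higher in combined than in Control cells (edgeR adjusted p = 0.000810). It was 1.12 ± 0.17 higher in combined than in IFN-gamma cells (edgeR adjusted p = 0.000977). Both calls held in the 11 fits that left out 1 library. IFN-gamma against Control gave -0.068 ± 0.17 (edgeR adjusted p = 0.768). An antisense gene overlaps Dusp16 and had 0 to 1 counts per library.

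Dusp10 (chromosome 1, 184013302 to 184075636, plus strand) encodes a phosphatase of p38 and JNK. Its level was 1.18, 1.04 and 1.46 FPKM in combined libraries and 0.420 and 0.439 FPKM in Pam3CSK4 libraries. IFN-gamma libraries held 2.43, 2.05 and 1.92 FPKM, and Control libraries held 0.322, 0.324 and 3.08 FPKM. Combined, Pam3CSK4 and IFN-gamma libraries did not overlap one another, and 1 Control library lay above all of them while the other 2 lay below all of them. That library was Control replicate 3, with 194 counts of Dusp10 beside 17 and 18 counts in the other 2 Control libraries. With all libraries no comparison of Dusp10 passed, and the log2 changes were -1.46 ± 0.84 in Pam3CSK4 against Control (edgeR adjusted p = 0.187), 0.96 ± 0.70 in IFN-gamma against Control (edgeR adjusted p = 0.299) and 0.15 ± 0.70 in the combined group against Control (edgeR adjusted p = 0.877).

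Without the 3 libraries that carried mural and fibroblast transcripts, Dusp10 was the member with the largest rise in IFN-gamma against Control. Its log2 change was then 2.68 ± 0.21 (edgeR adjusted p = 3.30e-05), and it was 2.76 without Control replicate 3 alone (edgeR adjusted p = 1.36e-05). The combined group stood 1.82 above Control (edgeR adjusted p = 0.000208), 1.48 above Pam3CSK4 (edgeR adjusted p = 0.00181) and at -0.86 against IFN-gamma (edgeR adjusted p = 0.00592). Pam3CSK4 against Control turned to 0.34 and did not pass (edgeR adjusted p = 0.357). The gene 1700056E22Rik overlaps Dusp10 on the other strand and had 0 to 7 counts per library.

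Leaving out the 3 libraries changed how many members were called as well as which genes of the whole table were called. Members called were then 7 in Pam3CSK4 against Control (53.8% of all genes), 5 in IFN-gamma against Control (47.3%), 8 in the combined group against Control (53.4%), 7 in the combined group against IFN-gamma (40.1%), 2 in the combined group against Pam3CSK4 (19.4%) and 5 in the interaction (28.3%). Dusp2, Dusp4, Dusp5, Dusp6, Dusp7 and Dusp16 kept their directions and their calls against Control in both Pam3CSK4-treated groups. Dusp1, Dusp2, Dusp5, Dusp10 and Dusp16 were each highest within the Control group in Control replicate 3. Dusp8 and Dusp9, the remaining classical members of the family, showed the same: they were at 0.394 and 0.604 FPKM or less in the 10 other libraries and at 1.70 and 2.30 FPKM in Control replicate 3, and they were not tested.

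**Figure D3:**
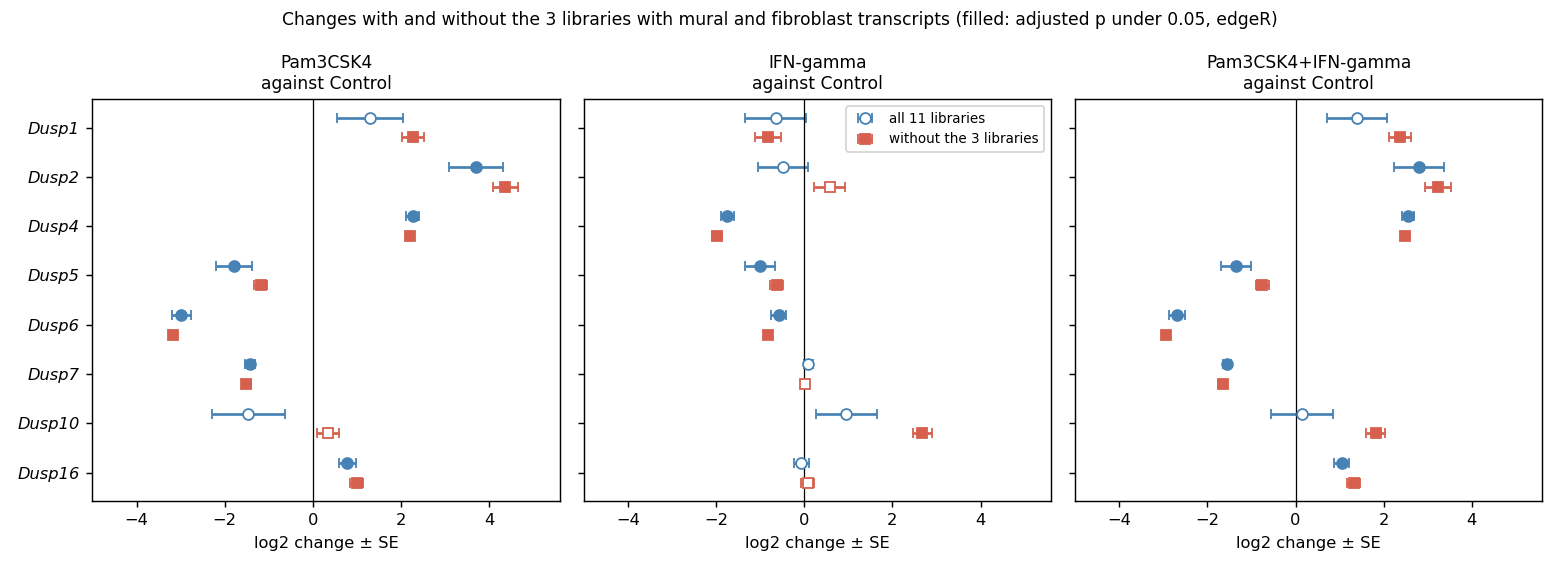
Log2 change ± SE of the 8 phosphatase genes in 3 comparisons with Control, from all 11 libraries (circles) and without the 3 libraries that carried mural and fibroblast transcripts (squares); filled symbols passed an adjusted p of 0.05 in edgeR. Dusp4, Dusp6 and Dusp7 changed little between the 2 fits, while Dusp10 in IFN-gamma against Control stood at 0.96 with all libraries and at 2.68 without the 3.

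The comparison of the combined group with Pam3CSK4 sets cells given IFN-gamma after Pam3CSK4 beside cells given Pam3CSK4 alone. The harvest time of Pam3CSK4 cells is not stated, so added IFN-gamma and time since Pam3CSK4 cannot be told apart. The same holds for the interaction. In the combined group against Pam3CSK4, 0 of 8 members were called by edgeR, by DESeq2 or by limma, and 0 had an unadjusted p under 0.05, beside 9.10% of all tested genes called, 6.06% higher and 3.04% lower. At that background a count of 0 among 8 genes says little about the members, whose median absolute log2 change was 0.30, beside 0.20 over all tested genes. Dusp2 and Dusp10 were called when the 3 libraries were left out, at -1.13 and 1.48, beside 19.4% of all genes. When the fit held just the 2 groups, 4 members (Dusp2, Dusp4, Dusp5 and Dusp10) were called. Calls over all genes also rose in that fit, from 995 to 2314 of 10938. In the interaction, 2 members were called with all libraries, beside 16.0% of all genes, 8.01% in each direction. They were Dusp4 and Dusp6, and their signs describe different patterns. For Dusp4, the rise with Pam3CSK4 was larger with IFN-gamma than without. For Dusp6, the fall with Pam3CSK4 was smaller with IFN-gamma than without. With the 3 libraries left out, Dusp5 was also called in the interaction at 1.05 (edgeR adjusted p = 0.00887), Dusp2 at -1.70 (edgeR adjusted p = 0.0197) and Dusp10 at -1.20 (edgeR adjusted p = 0.0214).

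Because FPKM accounts for gene length, the 8 mRNAs could be summed and their shares compared. The summed level was 73.0, 66.3 and 76.6 FPKM in combined libraries, 67.8 and 70.9 FPKM in Pam3CSK4 libraries, 86.2, 73.2 and 68.6 FPKM in IFN-gamma libraries, and 125, 118 and 112 FPKM in Control libraries. Control libraries were highest, and the 3 treated groups overlapped one another except that Pam3CSK4 and combined libraries lay below IFN-gamma replicate 1. Dusp6 made up 17.0 to 18.2% of the sum in combined libraries, 15.7 to 16.2% in Pam3CSK4 libraries, 70.8 to 72.2% in IFN-gamma libraries and 60.0 to 78.3% in Control libraries. Dusp4 made up 52.2 to 54.8% in combined libraries, 47.8 to 49.0% in Pam3CSK4 libraries, 2.16 to 2.83% in IFN-gamma libraries and 5.58 to 6.10% in Control libraries. The leading phosphatase mRNA was therefore Dusp4 in every library given Pam3CSK4 and Dusp6 in every library not given it. Dusp2 held 5.61 to 8.42% of the sum in combined libraries and 14.3 to 14.8% in Pam3CSK4 libraries, against at most 1.26% in the libraries not given Pam3CSK4. Dusp5 held 16.0% in Control replicate 3 and 4.15 to 7.06% in the other 10 libraries.

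**Figure D4:**
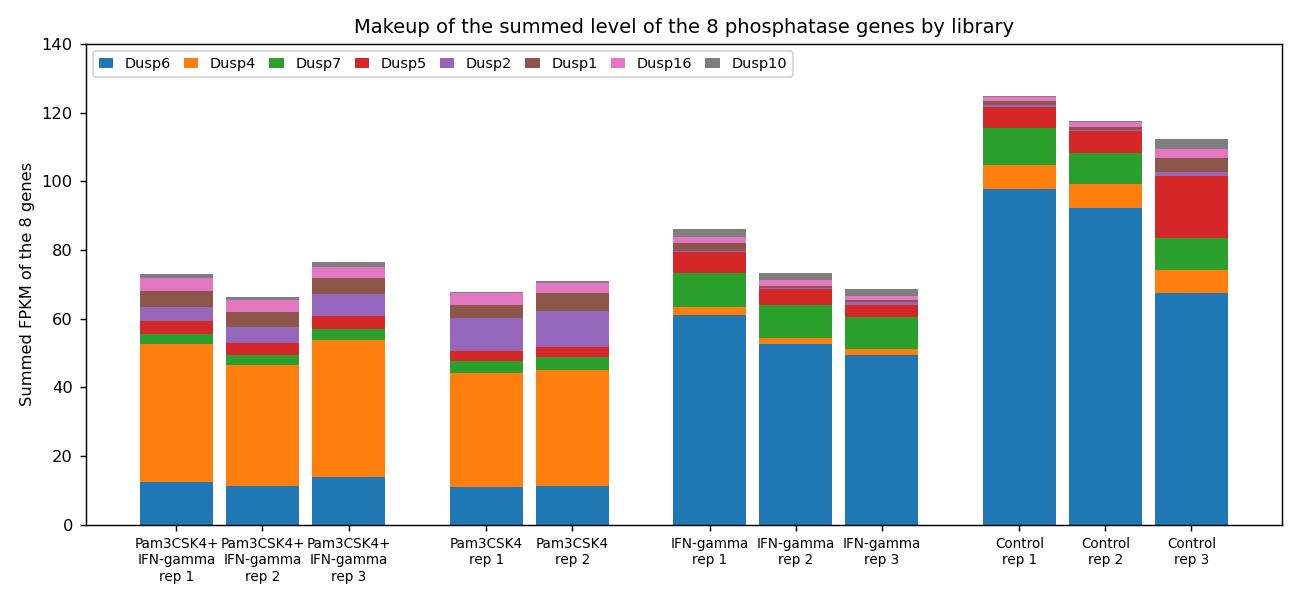
Summed FPKM of the 8 phosphatase genes in each library (vertical axis, from 0), split by gene. Dusp4 was the largest block in the 5 libraries given Pam3CSK4 (47.8 to 54.8% of the sum) and Dusp6 the largest in the 6 others (60.0 to 78.3%).

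Genes that act around these phosphatases were taken from 9 lists and are described by counts, with lists chosen with earlier results of these data known. In Pam3CSK4 against Control, the list of ERK-dependent transcripts and feedback inhibitors had 3 genes higher and 7 lower of 18 tested (of 20). Over all tested genes, 41.4% were called, 20.0% higher and 21.4% lower. The median log2 change was -1.01 over the list and -0.043 over all tested genes. Egr2, an early transcription factor induced through ERK, was at 0.803 ± 0.139 FPKM in Pam3CSK4 cells (SD, n = 2) and 16.7 ± 3.74 FPKM in Control cells (n = 3), which is -4.41 ± 0.29 on the log2 scale (edgeR adjusted p = 6.60e-06). Egr1, of the same family, changed by -2.35 ± 0.23 (edgeR adjusted p = 4.64e-05). Fos and Ccnd1, an AP-1 subunit and cyclin D1, went the other way, by 1.28 ± 0.17 (edgeR adjusted p = 0.000290) and 0.79 ± 0.14 (edgeR adjusted p = 0.00156). The list held 7 higher and 7 lower when the 3 libraries were left out, beside 53.8% of all genes called.

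Counts of called kinase genes can be read beside the 41.4% of all tested genes called in Pam3CSK4 against Control. Of 10 ERK cascade kinases, 3 were higher and 0 lower in Pam3CSK4 against Control, among them Map2k2, the ERK kinase MEK2, at 0.54 ± 0.07 (edgeR adjusted p = 0.000394). Of 4 tested p38 cascade kinases, 2 were higher and 0 lower, namely Map2k3 by 0.49 ± 0.10 (edgeR adjusted p = 0.00356) and Mapk14, which encodes p38 alpha, by 0.42 ± 0.13 (edgeR adjusted p = 0.0285). JNK cascade kinases had 1 higher and 1 lower of 4 tested. Without the 3 libraries, 53.8% of all genes were called. ERK cascade kinases were then 2 higher and 1 lower, p38 cascade kinases 2 higher and 0 lower, and JNK cascade kinases 2 higher and 0 lower. Upstream MAP3 kinases had 1 higher and 2 lower of 9 tested. Of 10 kinases downstream of MAP kinases, 2 were higher and 3 lower. Mapkapk2, the p38-activated kinase that inactivates tristetraprolin, was at 237 ± 0.841 FPKM in Pam3CSK4 cells (SD, n = 2) and 114 ± 8.02 FPKM in Control cells (n = 3), which is 1.03 ± 0.13 higher on the log2 scale (edgeR adjusted p = 0.000206).

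The AU-rich list, of proteins that bind AU-rich mRNA or are regulated through p38, had 2 higher and 3 lower of 6 in Pam3CSK4 against Control. In that comparison 41.4% of all tested genes were called, 20.0% higher and 21.4% lower. Zfp36l1 changed by -2.20 ± 0.20 (edgeR adjusted p = 3.03e-05) and Zfp36l2 by -2.05 ± 0.18 (edgeR adjusted p = 2.70e-05). In the combined group against Pam3CSK4, 2 of the 6 were higher and 0 lower, beside 9.10% of all tested genes, 6.06% higher and 3.04% lower. Added IFN-gamma and time since Pam3CSK4 cannot be told apart in that comparison. Zfp36l1 rose by 1.24 ± 0.19 (edgeR adjusted p = 0.00311) and Zfp36, which encodes tristetraprolin, by 1.07 ± 0.11 (edgeR adjusted p = 0.000387). Zfp36 was at 125 ± 3.86 FPKM in combined cells (SD, n = 3) and 64.2 ± 4.34 FPKM in Pam3CSK4 cells (n = 2). Other phosphatases that act on MAP kinases had 2 higher and 1 lower of 6 tested in Pam3CSK4 against Control, and Ppm1b rose by 0.83 ± 0.11 (edgeR adjusted p = 0.000269). Atypical dual-specificity phosphatases, which lack the MAP kinase-binding domain, had 1 higher and 2 lower of 6 tested, and Dusp22 changed by -1.29 ± 0.21 (edgeR adjusted p = 0.00124). Both phosphatase counts can be read beside the same 41.4% of all tested genes. Without the 3 libraries that carried mural and fibroblast transcripts, the AU-rich list was again 2 higher and 3 lower in Pam3CSK4 against Control. The atypical phosphatases were then 1 higher and 4 lower in that comparison, beside 53.8% of all genes called. In the combined group against Pam3CSK4, the AU-rich list was then 3 higher and 1 lower, beside 19.4% of all genes.

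The same lists were counted in IFN-gamma against Control, where 41.6% of all tested genes were called. Atypical dual-specificity phosphatases had 2 higher and 1 lower of 6 tested, with Dusp23 at 2.03 ± 0.36 (edgeR adjusted p = 0.00189), Dusp28 at 1.68 ± 0.16 (edgeR adjusted p = 4.96e-05) and Dusp3 at -1.002 ± 0.14 (edgeR adjusted p = 0.000452). Upstream MAP3 kinases had 0 higher and 5 lower of 9 tested, Map3k1 among them at -0.63 ± 0.15 (edgeR adjusted p = 0.00909). ERK cascade kinases had 1 higher and 3 lower of 10, and ERK-dependent transcripts had 1 higher and 4 lower of 18 tested. Without the 3 libraries the latter had 3 higher and 5 lower, beside 47.3% of all genes called. When the combined group was set against IFN-gamma, 34.2% of all tested genes were called, 17.0% higher and 17.2% lower. There 6 of 10 ERK cascade kinases were higher and 0 lower. Among them was Map3k8, the kinase that links Toll-like receptors to ERK, at 0.69 ± 0.16 (edgeR adjusted p = 0.00918). In that comparison ERK-dependent transcripts had 1 higher and 8 lower of 18 tested, with Egr2 at -2.54 ± 0.22 (edgeR adjusted p = 3.66e-05) and Myc at -2.29 ± 0.35 (edgeR adjusted p = 0.00103). Against Control, the combined group had 3 higher and 7 lower of the same 18, and 4 higher and 1 lower of 10 ERK cascade kinases. Of the 6 genes of the AU-rich list, 0 were higher and 2 lower. The share of all tested genes called against Control was 47.6%, with 23.4% higher and 24.2% lower. Egr2 was also among the genes that differed between the combined and the Pam3CSK4 group, at 1.98 ± 0.27 (edgeR adjusted p = 0.00154).

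**Figure D5:**
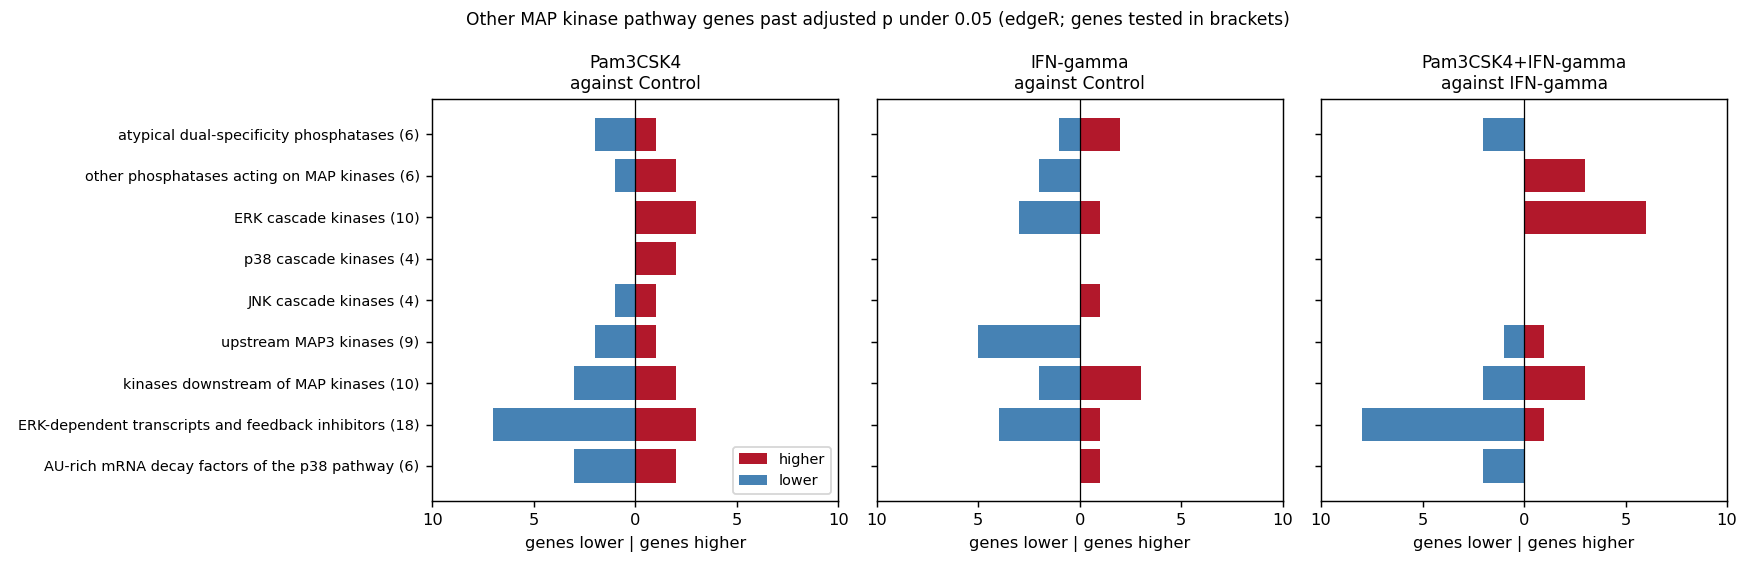
Number of genes lower (left of 0) and higher (right of 0) at an adjusted p of 0.05 in edgeR, for 9 lists of MAP kinase pathway genes outside the 8 members in 3 comparisons, with the number of genes tested in brackets. ERK-dependent transcripts had 7 lower and 3 higher in Pam3CSK4 against Control, where 41.4% of all tested genes were called. They had 7 lower and 7 higher without the 3 libraries that carried mural and fibroblast transcripts. ERK cascade kinases had 6 higher and 0 lower in the combined group against IFN-gamma, where 34.2% of all tested genes were called.

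For 6 of the members called in at least 1 comparison, the tested gene most like each is given, taken as the one with the smallest root mean square (RMS) difference in centred log2(FPKM + 1) over the 11 libraries, as a description. Lrrc27 was the nearest to Dusp6 (RMS difference 0.185), Ms4a4a to Dusp4 (0.289) and Tnnt2 to Dusp2 (0.200). Dusp1 was nearest to Ampd3 (0.172), Dusp5 to Igf1r (0.165) and Dusp16 to Nup98 (0.0961). The spread of each member about its own mean on the same scale was 1.23 for Dusp6, 1.57 for Dusp4, 1.19 for Dusp2, 0.81 for Dusp1, 0.63 for Dusp5 and 0.38 for Dusp16. The libraries share groups and, in 3 of them, mural and fibroblast transcripts.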

How the data were processed

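The authors' deposited table gave whole-number read counts and FPKM values per Ensembl gene for each of 11 libraries, per the file headers. The build was mm10 and the tools were Cuffdiff, Cufflinks 2.1.1 and TopHat2 2.1.0, per the submitters' processing notes, which give no roles. Counting tool, annotation and strand setting: not given in the sources used here. Where all libraries held more than 200 counts (6617 genes), deposited FPKM equalled count divided by a constant per gene and by library total, to a relative deviation of 3.17e-06.

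Counts were fitted with edgeR 4.0.16 (R 4.3.3), quasi-likelihood F test, TMM scaling, in 1 fit of 4 group means over the 11 libraries (15033702 to 20321017 counts) without a replicate block. A gene was tested if 2 or more libraries reached 1 FPKM (10938 genes), two-sided, with Benjamini-Hochberg adjustment at 0.05. SE was obtained as |log2 change| over the root of F. Levels are means ± SD of deposited FPKM. The fit was tested on simulated data.

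Alternatives were DESeq2 1.42.0 size factors and Wald test, other filters, limma 3.58.1 on log2(FPKM + 1) and log2(FPKM + 0.1), each 2-group fit, leaving out each library, leaving out the 3 libraries that carried mural and fibroblast transcripts, and a replicate block. Replicate pairs differed by a chi-square per gene of 15.5 to 176, so none was counted as 1 sample. The members, gene lists, motifs and alternatives were chosen with earlier results of these data known. All 8 members are named; from each pathway list, genes were named from up to 2 higher and 2 lower with the largest change per comparison, given a mean of at least 2 FPKM in 1 group. Promoters are from RefSeq and 3′ UTRs from GENCODE M21. Some genes that the rules would name are not reported here.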

Additional observations from a re-analysis of the deposited data

Results flagged for a closer look

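A pair of members had a Pam3CSK4 effect that differed between cells given IFN-gamma and cells not given it, by the interaction test of edgeR. Time since Pam3CSK4 may also have differed between these cells, because harvest times of Control and Pam3CSK4 cells are not stated. For Dusp4 the interaction was 2.04 ± 0.20 on the log2 scale (edgeR adjusted p = 0.000446), from 4.30 with IFN-gamma and 2.26 without. It was called in each of the 11 fits that left out 1 library, and 16.0% of all tested genes were called in the interaction. For Dusp6 the interaction was 0.87 ± 0.26 (edgeR adjusted p = 0.0496), from -2.12 with IFN-gamma and -2.99 without, and it was called in 1 of the 11 fits that left out 1 library.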

How the results depend on the processing

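Across 952 recomputed member changes, 860 kept their direction and their side of the threshold, 50 lost the call, 23 gained it and 19 turned direction. Of 119 recomputed counts of called members, 96 were within 1.5 times the main count. Called members in IFN-gamma against Control were 1 with no filter on low values (4035 of all genes called) and 1 with just the 2 groups (3106). They were 5 without the 3 libraries that carried mural and fibroblast transcripts (5171 of all genes). The main fit called 4550 of all genes there. In the combined group against Pam3CSK4, members called were 4 with just the 2 groups (2314 of all genes) and 2 without the 3 libraries (2122). Calls over all genes in the main fit were 995. In the interaction, members called were 1 with no filter (1080 of all genes), 1 with edgeR's filterByExpr (1597) and 5 without the 3 libraries (3100). The main fit called 1752 of all genes in the interaction. Calls over all genes also moved in fits that left out 1 library and kept both Pam3CSK4 libraries. Against Control, they were 3949 to 5620 in Pam3CSK4, 3601 to 5336 in IFN-gamma and 4319 to 6054 in the combined group. The combined group gave 2683 to 4899 against IFN-gamma and 592 to 2005 against Pam3CSK4, and the interaction gave 993 to 3232. The ranges that follow are of members called. Leaving out 1 library at a time gave 1 to 3 in IFN-gamma against Control, 0 to 1 in the combined group against Pam3CSK4, 1 to 4 in the interaction, 4 to 7 in Pam3CSK4 against Control, 6 to 8 in the combined group against Control and 5 to 7 in the combined group against IFN-gamma.

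Signs turned as follows, and the cause was not tested. With 1 library left out at a time, Dusp10 ranged from -1.15 (without Control replicate 3) to 1.09 in the interaction, from -1.90 to 0.34 (without Control replicate 3) in Pam3CSK4 against Control, and from -0.29 (without Control replicate 1) to 1.96 in the combined group against Control. In IFN-gamma against Control, Dusp1 ranged from -1.79 to 0.34, Dusp2 from -0.95 to 0.17 and Dusp16 from -0.22 to 0.14, each highest without Control replicate 3. Dusp1 ranged from -0.23 (without Control replicate 3) to 1.90 in the interaction and from -0.13 (without Pam3CSK4 replicate 1) to 0.38 in the combined group against Pam3CSK4, and Dusp2 from -1.08 to 0.040 (without IFN-gamma replicate 3) in the interaction. Without the 3 libraries, Dusp10 stood at -1.20 in the interaction (called, edgeR adjusted p = 0.0214) and 0.34 in Pam3CSK4 against Control, and in IFN-gamma against Control Dusp16 stood at 0.076 and Dusp2 at 0.58. With limma, Dusp10 in the interaction stood at -0.066 and -0.11 (pseudocounts 1 and 0.1). None of these was called in the fit of all libraries.

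With the replicate number as a block, the interaction had 1 called member, beside 1344 of all genes. Dusp10 in the interaction stood at -0.29 and Dusp1 in the combined group against Pam3CSK4 at -0.11. The calls of Dusp5 in IFN-gamma against Control, Dusp1 in the combined group against IFN-gamma and Dusp6 in the interaction were lost (edgeR adjusted p = 0.0937, 0.0632 and 0.0613). Whether the numbers pair the samples was not settled. Over 15 same-numbered pairs, deviations from group means correlated at -0.72 to 0.71, and 6 pairs were over 0.1. The 3 libraries that carried mural and fibroblast transcripts correlated with each other at 0.71 to 0.81, which can hide a pairing. In the Pam3CSK4 group of 2 libraries the deviations mirror each other, so the check cannot decide there.

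Over all genes, calls in the combined group against Pam3CSK4 (995) ranged from 405 to 2314 and in the interaction (1752) from 664 to 3232. In Pam3CSK4 against Control (4532) they were 2642 with just the 2 groups and 2873 without Pam3CSK4 replicate 2. A group of 2 libraries and low counts of Dusp2 and Dusp10 limit the precision.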
